A study of Mus musculus with 8 samples.

Results

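The sarcoplasmic reticulum is the calcium store of heart muscle cells, and 10 genes for its release channel, pump, stored-calcium proteins and sodium-calcium exchanger were followed here: Ryr2, Atp2a2, Pln, Sln, Casq2, Trdn, Slc8a1, Jph2, Hrc and Srl. They were chosen by symbol from tables of 50600 genes, and each symbol stood in 1 row. All groups were mouse embryonic fibroblasts of the C57BL/6 strain infected with GHMT retroviruses, which carry the factors Gata4, Hand2, Mef2c and Tbx5 and turn part of a fibroblast culture towards heart muscle cells, and grew in serum-free StemPro-34 medium. For 7 days the cells were given 0.1% ethanol, 1% DMSO, 5 µM I-CBP112, a compound that binds the bromodomains of CBP and p300, both acetyltransferases, or 5 µM C646, an inhibitor of their catalytic site. Each group had 2 RNA sequencing libraries, 8 in all; the labels name no solvent for the inhibitors, so its effect and theirs cannot be told apart, and they do not say whether transduced cells were selected. The values come from the authors' 3 comparison tables, read here as DMSO, I-CBP112 and C646 each against ethanol, which hold no value of a single library. An error after ± is a standard error (SE), from those tables unless a rebuilt one is named. A gene was called where the authors' DESeq2 adjusted p was below 0.05. The titles number the 2 libraries of each group B2 and B3, and do not say what these numbers stand for or whether they match between groups. Nothing in the labels says that the 2 libraries of a group came from separate cultures. The p-values therefore rest on a spread between libraries, moderated over genes by DESeq2, which may be technical.

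In a heart muscle cell, a small entry of calcium through the surface membrane opens the ryanodine receptor, and the calcium that leaves the sarcoplasmic reticulum through it starts contraction. The pump SERCA2, encoded by Atp2a2, then returns calcium to the store under the brake of the small membrane proteins phospholamban (Pln) and sarcolipin (Sln), while the exchanger encoded by Slc8a1 moves calcium out of the cell. Inside the store, calsequestrin (Casq2) and other proteins hold calcium, and triadin (Trdn) and junctophilin (Jph2) keep the release sites in place.

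RNA of most of these genes was higher with DMSO and with I-CBP112 than with ethanol, and near the ethanol level with C646. Sln rose most with both DMSO and I-CBP112, to about 7 times its ethanol level, followed by sarcalumenin (Srl), Slc8a1 and Ryr2. Of the 10 genes, 7 rose and 0 fell with DMSO, where 8.07% of all 14830 tested genes were called higher and 7.9% lower. With I-CBP112, 7 rose and 0 fell as well, where 4.65% of all tested genes were called higher and 5.25% lower. With C646, 0 of the 10 were called by the authors' DESeq2 test, beside 0.00584% of 34250 genes in that table. An unadjusted p below 0.05 in that test was found for 0 of the 10, beside 0.748% of the 14830 tested genes. Both counts with C646 are near the background. Srl, Slc8a1, Ryr2, Sln, Atp2a2 and Casq2 rose with both DMSO and I-CBP112, Trdn passed the test with DMSO and Pln with I-CBP112. Fewer cells of a type and less RNA per cell cannot be told apart in RNA of whole cultures. Both comparisons use the same ethanol libraries, so these counts are not independent of each other. Hrc had no adjusted p with DMSO or I-CBP112, where its mean lay below the lowest tested mean, and Jph2 passed in none.

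**Figure D1:**
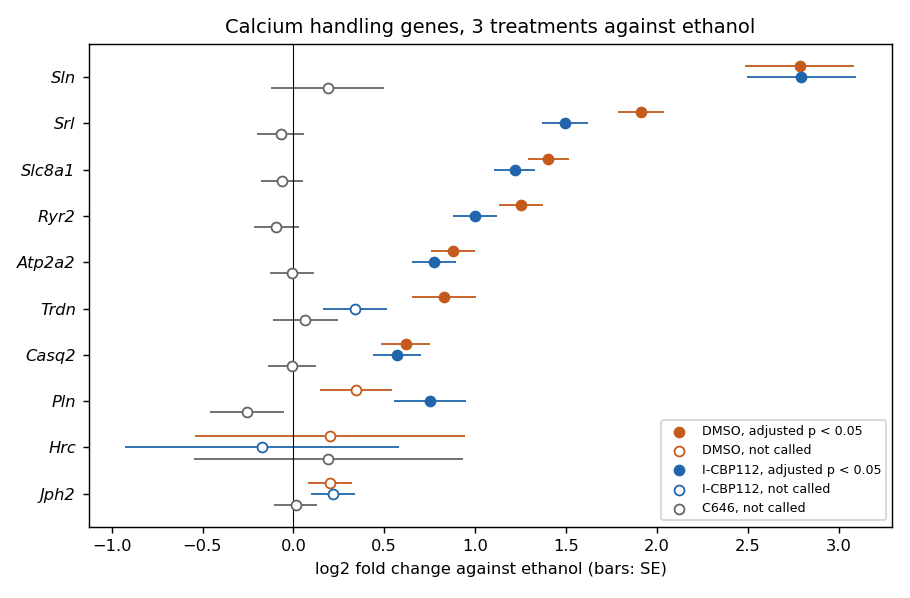
Log2 fold change against ethanol (x axis) of the 10 calcium handling genes (rows) with DMSO, I-CBP112 and C646; bars are the SE of the authors' tables, filled points are called and open points are not, or, for Hrc with DMSO and I-CBP112, have no adjusted p. Sln lies furthest to the right with DMSO (2.78) and I-CBP112 (2.79), and all C646 points lie between -0.26 and 0.19.

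Levels differed widely between the 10 genes. Group means of normalised counts, that is counts divided by library size factors, were rebuilt from the deposited tables and divided by the length of each gene's longest GENCODE transcript to compare genes. With ethanol, Casq2 had 4851 normalised counts per kilobase and Atp2a2 had 4079.7, and together these made up 80.7% of the sum over the 10 genes. Jph2 followed at 738 per kilobase, Srl at 576 and Ryr2 at 315. Pln at 142 per kilobase, Trdn at 136, Slc8a1 at 131 and Sln at 88.8 were lower, and Hrc, a histidine-rich calcium-binding protein of the store, had 7.81. The length changes these levels: counted per kilobase of all exons, Ryr2 with ethanol was at 184, since its exons join to 28790 bases against 16814 in the longest transcript. Trdn was then at 65.6, below Slc8a1 at 128, Pln at 119.9 and Sln at 88.8. For Slc8a1, whose longest transcript has 18464 bases, the authors' deposited table lists a transcript of 2913 bases, so its level per kilobase is uncertain. The share of Casq2 and Atp2a2 in the sum was 81.0% with C646, 74.3% with DMSO and 76.1% with I-CBP112. The sum itself was 11065 per kilobase with ethanol and 10968 with C646, and 20093 with DMSO and 18611 with I-CBP112.

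**Figure D2:**
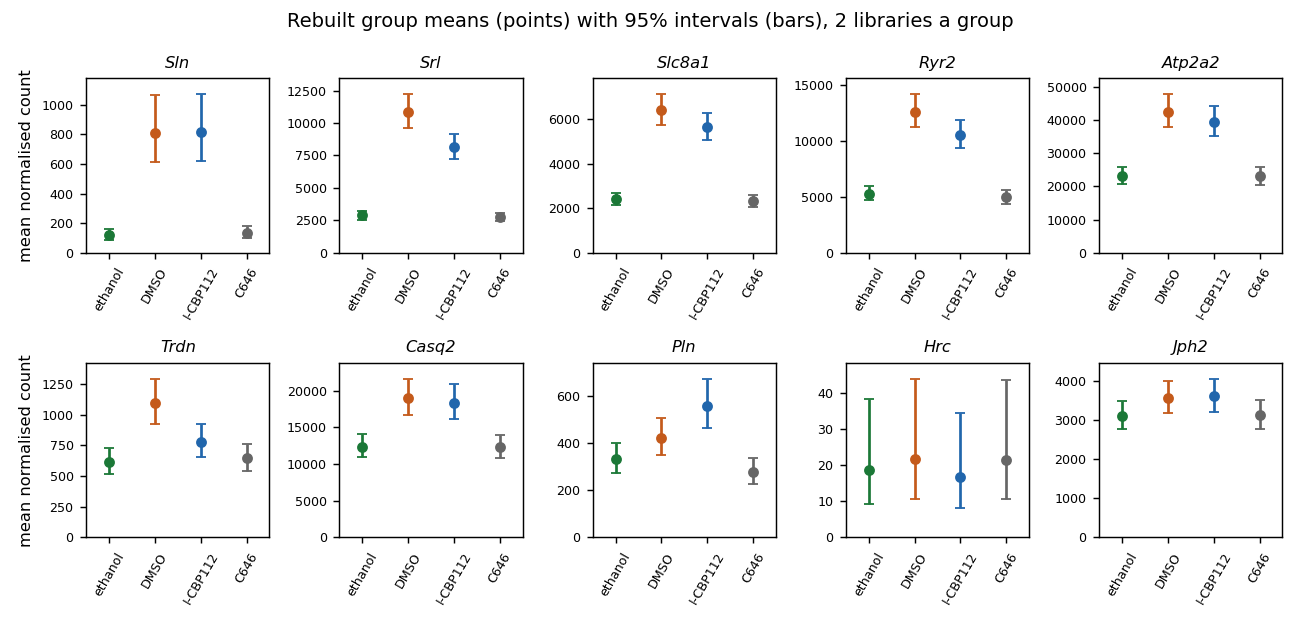
Mean normalised count (y axis, from 0, a separate scale for each gene) of each calcium handling gene in the 4 groups; points are group means rebuilt from the authors' tables and bars are 95% intervals from the rebuilt spread between 2 libraries. Ethanol and C646 are low together, and DMSO and I-CBP112 high, for Sln, Srl, Slc8a1, Ryr2, Atp2a2 and Casq2.

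The spread between libraries, which the tables carry only through their standard errors, was small for the abundant genes. The dispersion behind those errors equals a coefficient of variation between libraries of 7.65% for Slc8a1, 8.16% for Jph2, 8.36% for Atp2a2, 8.40% for Ryr2, 8.64% for Srl and 9.21% for Casq2. It was 11.6% for Trdn, 12.7% for Pln and 19.6% for Sln, and 46.3% for Hrc, whose mean was 19.7 normalised counts. DESeq2 moderates these values over genes, so they are not the spread of 2 libraries alone.

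Promoter sequence from RefSeq (build GRCm38.p6), 250 bases before to 50 bases after the gene start, was at hand for 6 of the 10 genes: Casq2, Hrc, Jph2, Pln, Ryr2 and Slc8a1. Sln, Srl, Atp2a2 and Trdn are not in that table. Of these 6, the 4 that were called in at least 1 comparison are printed, 5′ to 3′ on the gene's strand, with capitals for matches to motifs of the transduced factors and of TEAD factors (M-CAT), searched on both strands. The windows are chr17:81738338-81738637 on the minus strand for Slc8a1, chr13:12106896-12107195 on the minus strand for Ryr2, chr3:102086165-102086464 on the plus strand for Casq2 and chr10:53337436-53337735 on the plus strand for Pln.
Slc8a1: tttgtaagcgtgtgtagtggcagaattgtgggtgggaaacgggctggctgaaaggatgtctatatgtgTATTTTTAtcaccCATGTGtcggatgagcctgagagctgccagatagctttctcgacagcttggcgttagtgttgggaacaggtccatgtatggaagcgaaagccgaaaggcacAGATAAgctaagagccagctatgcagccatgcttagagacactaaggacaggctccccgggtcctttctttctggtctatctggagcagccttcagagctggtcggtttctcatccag
Ryr2: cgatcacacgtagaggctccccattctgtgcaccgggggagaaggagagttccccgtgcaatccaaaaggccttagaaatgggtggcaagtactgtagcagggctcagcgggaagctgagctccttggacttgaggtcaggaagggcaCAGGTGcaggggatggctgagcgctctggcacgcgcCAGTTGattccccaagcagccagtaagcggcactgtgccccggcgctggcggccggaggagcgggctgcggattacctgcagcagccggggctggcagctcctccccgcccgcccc
Casq2: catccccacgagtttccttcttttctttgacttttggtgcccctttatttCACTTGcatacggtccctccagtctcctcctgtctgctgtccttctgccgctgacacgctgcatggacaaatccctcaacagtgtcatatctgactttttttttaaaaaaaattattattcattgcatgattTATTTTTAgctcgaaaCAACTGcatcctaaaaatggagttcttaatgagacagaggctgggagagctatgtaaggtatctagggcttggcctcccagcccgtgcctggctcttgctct
Pln: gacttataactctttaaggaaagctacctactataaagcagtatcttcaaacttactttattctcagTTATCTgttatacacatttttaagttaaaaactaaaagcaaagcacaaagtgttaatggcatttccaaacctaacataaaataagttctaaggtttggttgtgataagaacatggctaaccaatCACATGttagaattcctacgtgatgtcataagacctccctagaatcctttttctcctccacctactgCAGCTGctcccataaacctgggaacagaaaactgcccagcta
The MEF2 motif TAAAAATA was found in the Slc8a1 window, starting 182 bases upstream of the gene start, and in the Casq2 window, 68 bases upstream, both on the other strand. Over all 32851 promoter windows of the table, 2.72% hold it. The GATA motif AGATAA was found in the Slc8a1 window 68 bases upstream and, on the other strand, in the Pln window 183 bases upstream, and 11.2% of all windows hold it. The general E-box CANNTG was found in the windows of all 6 genes, and 72.3% of all windows hold it. The letters CATCTG, an E-box of the type Hand proteins bind, are also a form of the general E-box; they had 0 matches in these genes and 17.2% of all windows hold them. The T-box motif AGGTGT, held by 13.7% of all windows, had 0 matches as well. So did the M-CAT motif CATTCC, held by 14.7%. A match describes these letters in this window and is not a measured binding site. Both genes with a MEF2 match rose with DMSO and I-CBP112, and so did Ryr2, which has no such letters in its window.

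RNA of the release channel Ryr2 and of the calcium-binding proteins Casq2 and Srl was higher with DMSO and I-CBP112 than with ethanol. Ryr2 (ENSMUSG00000021313.15, chromosome 13, 11553102 to 12106945, minus strand on GRCm38), the ryanodine receptor of heart muscle, had a mean of 5300.1 normalised counts with ethanol and 4969 with C646, and 12631 with DMSO and 10594 with I-CBP112. Intervals (95%) of these means with DMSO and with I-CBP112 lay above those of both other groups. The authors' deposited table for DMSO puts Ryr2 at 2.38 times its ethanol level, with a 95% interval of 2.02 to 2.81 (adjusted p = 3.84e-22). Their deposited table for I-CBP112, the authors' own values again, gives 1.999 times, with an interval of 1.69 to 2.36 (adjusted p = 6.67e-14). For C646 the ratio in the authors' deposited table was 0.937, with an interval of 0.793 to 1.11. Srl (ENSMUSG00000022519.13, chromosome 16, 4480216 to 4541816, minus strand) encodes sarcalumenin, a calcium-binding glycoprotein of the store that is found with the pump rather than at the release site. It had a mean of 2879 with ethanol and 2741 with C646, and 10825 with DMSO and 8116 with I-CBP112. Its log2 fold change in the authors' deposited table was 1.91 ± 0.13 with DMSO (adjusted p = 1.97e-48), the 54th highest of the 14830 tested genes. With I-CBP112 the authors' deposited table gives a ratio to ethanol of 2.82 (adjusted p = 4.29e-29), the 62nd highest. In these groups the 95% intervals of its means overlapped neither each other nor those of ethanol and C646. Casq2 (ENSMUSG00000027861.13, chromosome 3, 102086415 to 102146514, plus strand), the main calcium buffer of the heart's store, had 12398 normalised counts with ethanol and 12325 with C646, and 19013 with DMSO and 18399 with I-CBP112. Relative to ethanol it stood at 1.53 times with DMSO (adjusted p = 8.45e-05) and 1.48 times with I-CBP112 (adjusted p = 0.00052) in the authors' deposited table. Its means had 95% intervals that separated these groups from ethanol and C646, and the ratios were smaller than those of the scarcer Ryr2 and Srl.

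Trdn and Jph2, which hold the release site together, had smaller fold changes than the channel. Trdn (ENSMUSG00000019787.9, chromosome 10, 33080554 to 33476709, plus strand), triadin, which ties calsequestrin to the ryanodine receptor, had 614 normalised counts with ethanol and 643 with C646, and 1091 with DMSO and 777 with I-CBP112. It rose with DMSO in the authors' deposited table, by a log2 fold change of 0.83 ± 0.18 (adjusted p = 5.48e-05). With I-CBP112 the value in the authors' deposited table was 0.34 ± 0.18 (adjusted p = 0.277), not past the test. The 95% interval of its mean with DMSO lay above those of the other groups, which overlapped each other. Jph2 (ENSMUSG00000017817.11, chromosome 2, 163336242 to 163397993, minus strand), junctophilin 2, which joins the store to the surface membrane, had 3109 with ethanol and 3135 with C646, and 3577 with DMSO and 3619 with I-CBP112. Its ratio to ethanol was 1.15 with DMSO, with a 95% interval of 0.977 to 1.36, and 1.16 with I-CBP112, with an interval of 0.989 to 1.37, in the authors' deposited table, so a rise of up to 1.37 times lies within the error. All 4 of its means had overlapping 95% intervals. Set against the channel per kilobase, Jph2 went from 234 per 100 Ryr2 with ethanol to 113 with DMSO and 136 with I-CBP112, and stood at 252 with C646. Trdn went from 43.1 per 100 Ryr2 with ethanol to 32.2 with DMSO and 27.3 with I-CBP112, and was 48.2 with C646. These ratios depend on the lengths used, though not in their order between groups, and were not tested. Hrc (ENSMUSG00000038239.11, chromosome 7, 45335290 to 45338974, plus strand) had 18.8 normalised counts with ethanol and 21.5 with C646, and 21.7 with DMSO and 16.7 with I-CBP112. Its 95% interval against ethanol ran from 0.420 to 3.15 times with DMSO in the authors' deposited table, which includes a change of 2-fold either way.

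Of the brakes, Sln rose by a larger factor than the pump gene with DMSO and I-CBP112, and Pln with I-CBP112 by a factor near that of the pump gene. Differences between genes were not tested. Atp2a2 (ENSMUSG00000029467.15, chromosome 5, 122453513 to 122502225, minus strand), the pump gene, had 23148 normalised counts with ethanol and 23045.5 with C646, and 42558.5 with DMSO and 39499 with I-CBP112. The DMSO mean was 1.84 times that of ethanol (adjusted p = 3.02e-11) and the I-CBP112 mean 1.71 times (adjusted p = 1.7e-08) in the authors' deposited table. Both means had 95% intervals above those of ethanol and C646, and these overlapped each other. SERCA2 is also the housekeeping pump of the endoplasmic reticulum in non-muscle cells, and the values are for the whole gene, not for the muscle isoform. Sln (ENSMUSG00000042045.6, chromosome 9, 53850164 to 53854560, plus strand), the brake found in atrial and skeletal muscle, had 117 with ethanol and 133 with C646, and 807 with DMSO and 812 with I-CBP112. Against ethanol the authors' deposited table for DMSO gives 6.89 times, with a 95% interval of 4.58 to 10.4 (adjusted p = 3.13e-18). For I-CBP112 the authors' deposited table gives 6.94 times, with an interval of 4.62 to 10.4 (adjusted p = 4.91e-18), and in both tables it was the 7th highest fold change of the 14830 tested genes. With C646 the ratio of Sln to ethanol in the authors' deposited table was 1.14, with an interval of 0.748 to 1.74, so a rise of up to 1.74 times lies within the error. The 95% intervals of the Sln means with ethanol and C646 ended at 158 and 179.5, and those with DMSO and I-CBP112 began at 612 and 617. Pln (ENSMUSG00000038583.13, chromosome 10, 53337667 to 53345987, plus strand), the brake of the ventricle and other heart muscle, had 331 with ethanol and 277 with C646, and 419.8 with DMSO and 557 with I-CBP112. It rose with I-CBP112, in the authors' deposited table, by a log2 fold change of 0.75 ± 0.20 (adjusted p = 0.0028). With DMSO the authors' deposited table gives 0.34 ± 0.20 (adjusted p = 0.265), and with C646 -0.26 ± 0.20, neither past the test. The 95% interval of its mean with I-CBP112 lay above those of ethanol and C646 and overlapped that of DMSO. The means of Pln, Sln and Jph2 were highest with I-CBP112, and those of Srl, Ryr2, Slc8a1, Atp2a2, Casq2, Trdn and Hrc with DMSO.

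Sln RNA was set against Pln RNA per kilobase of the longest transcripts. Sln stood at 62.7 per 100 Pln with ethanol and 85.3 with C646, and at 340.3 with DMSO and 258 with I-CBP112. Counted per kilobase of all exons the values were 74.1, 101, 402 and 305, so with C646 the order of both genes depends on the length used. The authors' deposited table lists a shorter Pln transcript of 771 bases, and with the listed lengths the levels over all libraries were 514 for Pln and 355 for Sln, against 169.7 and 355 with the longest transcripts. Which of these genes had more RNA is therefore uncertain, while the change of their ratio between groups does not depend on the length. Per 100 Atp2a2, Sln was 2.18 with ethanol and 2.49 with C646, and 8.16 with DMSO and 8.85 with I-CBP112. Pln per 100 Atp2a2 was 3.47 with ethanol and 2.92 with C646, and 2.40 with DMSO and 3.43 with I-CBP112. Pln shares exon sequence with Cep85l and Gm47644 on the opposite strand, up to 141 and 1312 bases, and no source used here says whether counting used strand, so reads of the overlap cannot be told apart. Cep85l in the authors' deposited table stood at 0.65 ± 0.25 with DMSO, at 0.71 ± 0.25 with I-CBP112 and, with C646, at 0.08 ± 0.25, from a mean of 567 normalised counts, and its part in the Pln values was not tested. Gm47644 had a mean of 25.6. Atp2a2 shares up to 83 exon bases with Gm43361 on the opposite strand, which had a mean of 200.1 normalised counts, and Slc8a1 shares up to 296 with AC122399.1.

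The exchanger had a profile near that of the release channel. Slc8a1 (ENSMUSG00000054640.14, chromosome 17, 81373105 to 81738377, minus strand), the sodium-calcium exchanger NCX1, had 2415 normalised counts with ethanol and 2313 with C646, and 6379.9 with DMSO and 5617 with I-CBP112. The 95% intervals of the means with DMSO and I-CBP112 overlapped each other and lay above those of ethanol and C646. Its ratio to ethanol was 2.64 with DMSO, with a 95% interval of 2.27 to 3.08 (adjusted p = 1.82e-32), in the authors' deposited table. With I-CBP112 it was 2.33, with an interval of 1.99 to 2.71 (adjusted p = 3.71e-24), in the authors' deposited table. With C646 it was 0.958, with an interval of 0.820 to 1.12, in the authors' deposited table. Over the 4 groups the profiles of Ryr2 and Slc8a1 lay nearest to each other of all pairs of members with an adjusted p, at a distance of 0.18 on the log2 scale, and those of Jph2 and Sln furthest apart, at 2.49. Distance here is the Euclidean distance between log2 group means centred on each gene.

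Leaving out Hrc, the median log2 fold change of the members was 0.88 with DMSO and 0.77 with I-CBP112, and with C646 it was -0.01, beside 0.03, 0.01 and 0.00 over all tested genes in that order. With C646, 9 of the 10 genes lay within 1 SE of no change, and over the tested genes 90.3% did, against 46.3% with DMSO and 55.4% with I-CBP112. The exception was Pln, at -0.26 ± 0.20 in the authors' deposited table. A share of 90.3% is more than a normal error gives when no gene differs. The errors were therefore wide beside the differences between C646 and ethanol, and why was not tested. These calls rest on a spread that DESeq2 pools over genes: when the deposited statistic was read from a t distribution (4 degrees of freedom), not the normal one, 0 of the 7 members called with DMSO and 0 of the 7 called with I-CBP112 passed, as against 1 and 0 of all genes. That reading leaves the pooling over genes out of account and removed nearly every call, so it cannot tell which calls of members hold.

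**Figure D3:**
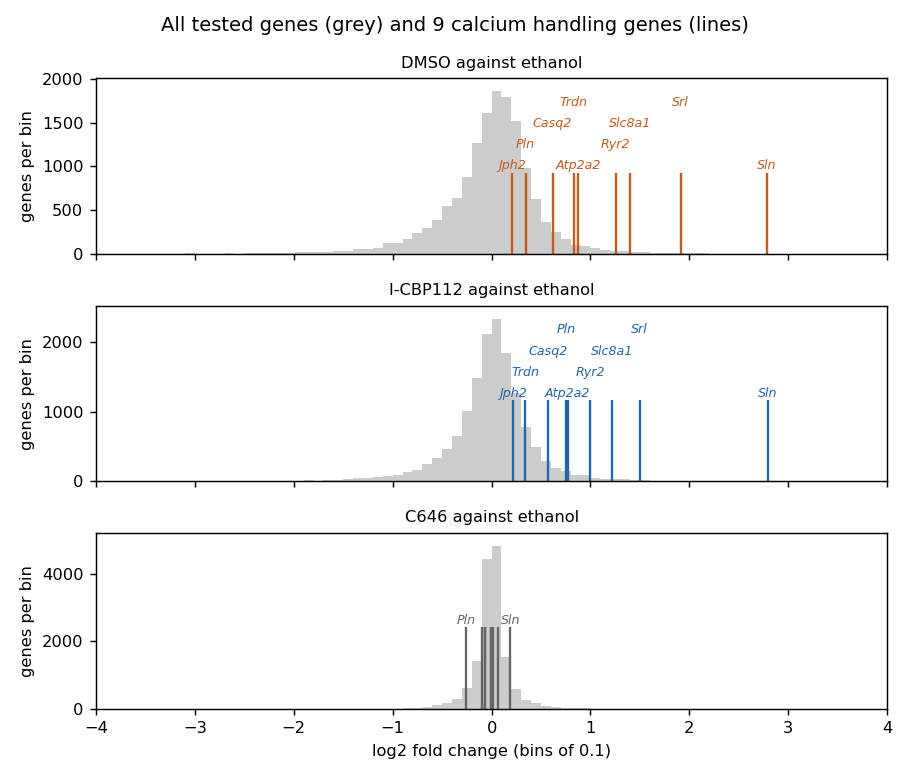
Number of tested genes (grey bars, y axis) by log2 fold change against ethanol (x axis, bins of 0.1) in each comparison, with coloured lines at the 9 calcium handling genes other than Hrc; with C646 only Pln and Sln are named. All 9 lines lie right of 0 with DMSO and I-CBP112, and with C646 they lie between -0.26 and 0.19.

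Differences between treatments were tested directly, with a standard error rebuilt from the 3 tables and adjustment over 14830 genes, for 3 pairs. DMSO and I-CBP112 differed in 1 of the 9 members with an adjusted p: Srl was 1.33 times as high with DMSO (log2 difference of I-CBP112 minus DMSO -0.42 ± 0.13, adjusted p = 0.019), beside 2.66% of all tested genes called lower with I-CBP112 and 4.31% higher. The call was lost, at an adjusted p of 0.399, with an upper bound of the standard error that ignores the common reference. Trdn came next, at -0.49 ± 0.17 (adjusted p = 0.063), and was not past the test, so its call with DMSO and lack of one with I-CBP112 do not show a difference. Nor does the call of Pln with I-CBP112: Pln with I-CBP112 was 1.33 times its DMSO level, with a 95% interval of 1.02 to 1.73 (adjusted p = 0.243). For Sln the ratio was 1.01, with an interval from 0.682 to 1.49, so a difference of up to 1.49 times lies within the error. For Ryr2 the ratio of I-CBP112 to DMSO was 0.839, with an interval of 0.711 to 0.990 (adjusted p = 0.245), and for Slc8a1 it was 0.880, with an interval of 0.756 to 1.03. Atp2a2 was at 0.928, Casq2 at 0.968 and Jph2 at 1.01, with intervals inside 0.788 to 1.19.

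The inhibitors of the bromodomain and of the catalytic site, both given at 5 µM, differed in most members. Against I-CBP112, C646 had lower RNA of 7 of the 9 genes, where 4.69% of all tested genes were lower. Sln was 6.09 times as high with I-CBP112 as with C646 (log2 difference -2.61 ± 0.30, adjusted p = 6.46e-16), Srl 2.96 times and Slc8a1 2.43 times. Ryr2 was 2.13 times as high, Pln 2.01 times (adjusted p = 1.83e-05), Atp2a2 1.71 times and Casq2 1.49 times (adjusted p = 0.00041). The call of Casq2 was lost, at an adjusted p of 0.0598, with the upper bound of the standard error. Trdn, at a ratio of C646 to I-CBP112 of 0.828 with an interval of 0.651 to 1.05, and Jph2, at 0.866 with an interval of 0.735 to 1.02, did not pass. Against DMSO, C646 had lower RNA of 8 of the 9 genes, where 7.86% of all tested genes were lower. The ratio of DMSO to C646 was 6.04 for Sln, 3.95 for Srl, 2.76 for Slc8a1, 2.54 for Ryr2, 1.85 for Atp2a2, 1.70 for Trdn, 1.54 for Casq2 and 1.52 for Pln. The call of Pln (adjusted p = 0.022) was lost with adjustment over all genes with a p-value (adjusted p = 0.0501) and with the upper bound (adjusted p = 0.275).

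**Figure D4:**
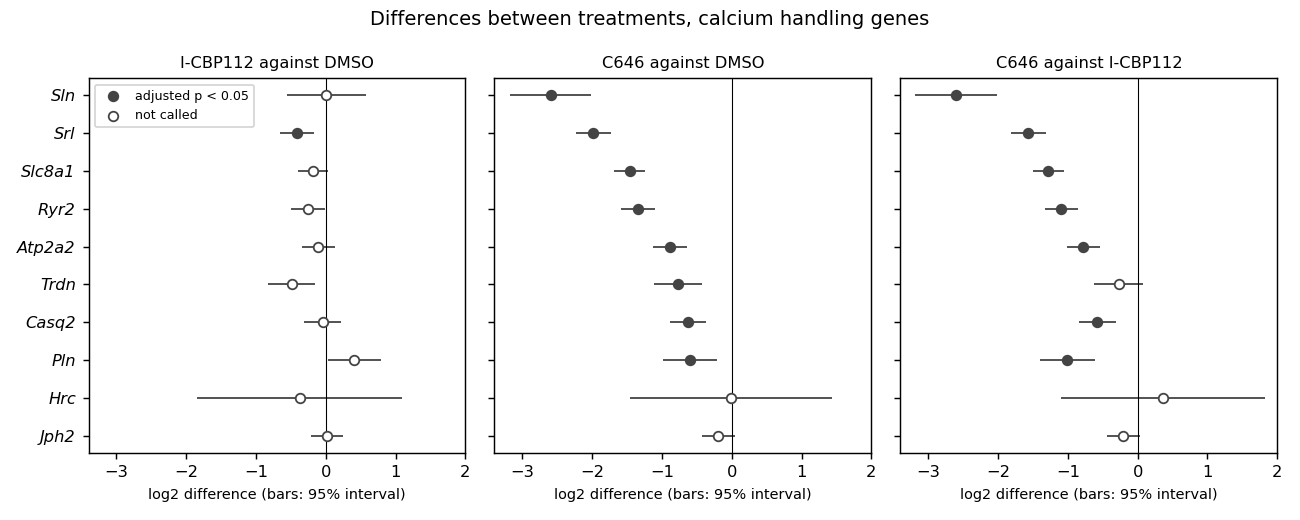
Log2 difference between treatments (x axis, the first named minus the second) for the 10 calcium handling genes (rows), with 95% intervals from the rebuilt standard error; filled points are called, open points are not, and Hrc has no adjusted p. Srl alone is filled for I-CBP112 against DMSO, and C646 lies left of 0 for 10 genes against DMSO and 9 against I-CBP112.

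Other genes of calcium handling, 65 in 6 lists, were chosen with earlier results of these data known, and 53 were tested. Of these, 12 rose and 3 fell with DMSO, 3 rose and 0 fell with I-CBP112, and 0 were called with C646. The shares over all tested genes were 8.07% higher and 7.9% lower with DMSO, and 4.65% higher with I-CBP112, so the 3 genes that fell with DMSO and the 3 that rose with I-CBP112 are near the background. In the list of release channels and junction proteins, 5 of 17 rose and 1 fell with DMSO, and 1 rose with I-CBP112. Jph1, the junctophilin of skeletal muscle, stood at 0.74 ± 0.24 with DMSO (adjusted p = 0.019) and 0.63 ± 0.24 with I-CBP112 (adjusted p = 0.078) in the authors' deposited table. Cav3, the caveolin of muscle membranes, was at 0.70 ± 0.23 (adjusted p = 0.017) with DMSO in the authors' deposited table. Tmem38a, a potassium channel of the muscle store, rose in both, at 0.51 ± 0.19 with DMSO and 0.67 ± 0.19 with I-CBP112 in the authors' deposited table. The inositol trisphosphate receptor Itpr1, a release channel of many cell types, rose with DMSO, at 0.44 ± 0.14 in the authors' deposited table. The member that fell was Fkbp1a, a binding protein of ryanodine receptors, at -0.36 ± 0.13 (adjusted p = 0.046) in the authors' deposited table; it and the calmodulin gene Calm3, which rose by 0.37 ± 0.13, were named after their values were seen. Medians of this list were 0.12 with DMSO and 0.13 with I-CBP112.

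Store-operated entry, by which emptied stores are refilled from outside the cell, belongs to a list with 3 of 8 tested genes higher with DMSO, beside 8.07% of all tested genes, and 1 with I-CBP112, beside 4.65%; with so few genes, 1 call is near the background. The store's calcium sensor Stim1 was at 0.56 ± 0.12 (adjusted p = 6.29e-05), its regulator Saraf at 0.48 ± 0.14 and the entry channel Orai1 at 0.41 ± 0.15 with DMSO in the authors' deposited table. With I-CBP112 the channel Orai3 was at 0.44 ± 0.15 (adjusted p = 0.028) in the authors' deposited table. Orai1 was lower with I-CBP112 than with DMSO, by a log2 difference of -0.45 ± 0.15 (adjusted p = 0.0499). In the mitochondrial uniporter list, 2 of 6 genes rose with DMSO, beside 8.07% of all tested genes. These were the pore Mcu at 0.46 ± 0.14 and the gatekeeper Micu2 at 0.35 ± 0.13, in the authors' deposited table. Among kinases, phosphatases and anchors that act on the pump, 2 of 12 rose and 2 fell with DMSO, and 0 were called with I-CBP112. Over all tested genes 8.07% were higher and 7.9% lower with DMSO, so with 12 genes these counts are not far from the background. Hspb6, a small heat shock protein that binds in the phospholamban phosphatase complex and is abundant in smooth muscle, fell with DMSO, at -1.22 ± 0.22 (adjusted p = 8.47e-07), and was at -0.39 ± 0.21 with I-CBP112 in the authors' deposited table. Smooth muscle markers fell in 6 of 7 with DMSO too, and their part in this value was not tested. The Hspb6 difference of I-CBP112 minus DMSO was 0.84 ± 0.22 (adjusted p = 0.0044). Camk2g, a calmodulin-dependent kinase, at 0.49 ± 0.12, and the kinase anchor Akap7, at 0.46 ± 0.16, rose with DMSO and the phosphodiesterase Pde4d fell, at -0.41 ± 0.14, in the authors' deposited table.

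Other proteins that bind calcium inside membrane stores, some of them chaperones, showed no call. Of these, 0 of 8 tested genes passed with DMSO, I-CBP112 or C646 by the authors' DESeq2 test, with medians of -0.02, -0.05 and 0.01. Over all tested genes 8.07% were higher and 7.9% lower with DMSO, and 4.65% higher and 5.25% lower with I-CBP112. With C646 0.00584% were called, so with 8 genes 0 calls is near the background. Their summed level was 216490 normalised counts with ethanol and 217608 with C646, and 209865 with DMSO and 205520 with I-CBP112. In the list of other pumps and small regulators only 2 genes were tested, both pumps of the surface membrane. Of these, 0 were called in any of the 3 comparisons by that test, which with so few genes is near the background too. No small regulator of that list was tested. Of the family relatives, Jph1 had a mean of 363 normalised counts, near the 396 of Pln. The skeletal muscle forms Ryr1, Atp2a1 and Casq1 had means of 11.4, 7.86 and 6.39 normalised counts over all libraries, against 8373 for Ryr2, 32063 for Atp2a2 and 15534 for Casq2. Ryr3 had 36.7, Slc8a3 had 27.5, Atp2a3 had 9.80 and Slc8a2 had 0.535. Asph, which encodes junctin among other products, stood at 0.06 ± 0.11 with DMSO and 0.07 ± 0.11 with I-CBP112 in the authors' deposited table.

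**Figure D5:**
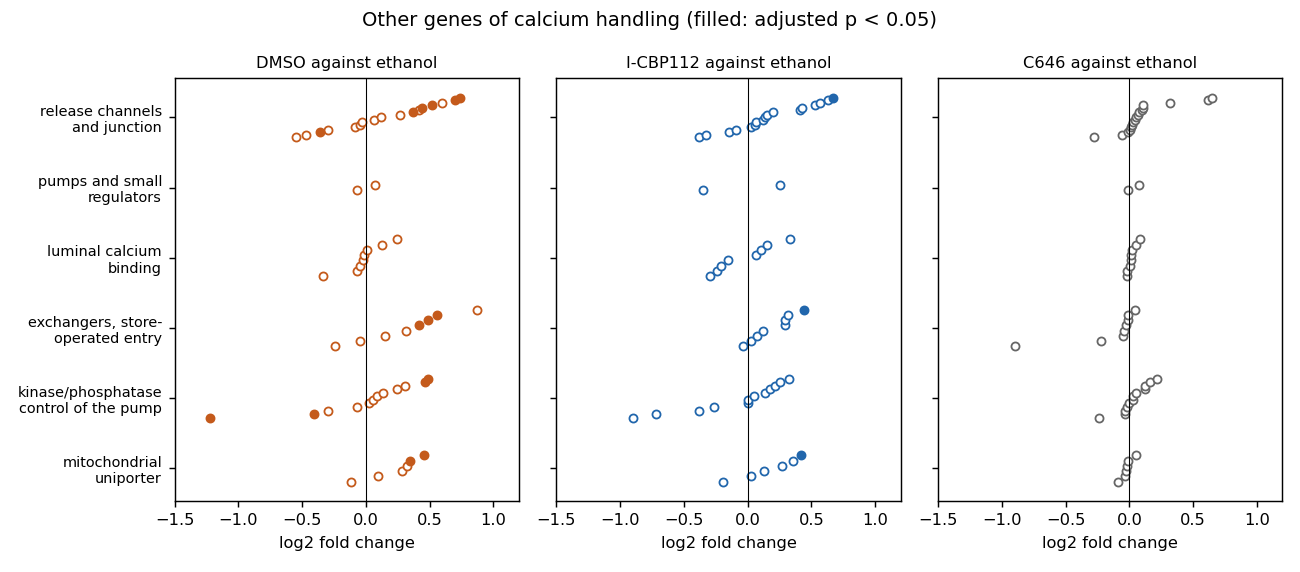
Log2 fold change against ethanol (x axis) of the 53 tested genes in 6 other calcium handling lists (rows; the vertical order within a row follows the value), filled where called. Filled points number 15 with DMSO and 3 with I-CBP112, C646 has 0, and Hspb6 is the point furthest left with DMSO.

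Markers of cell types gave the setting of these values. Over all tested genes, 8.07% were called higher and 7.9% lower with DMSO, and 4.65% higher and 5.25% lower with I-CBP112. In a list with few tested genes, 1 call is near these shares. Of 12 heart muscle markers, which include Ryr2 and Pln, 8 of 11 tested rose with DMSO and 11 of 11 with I-CBP112, and their summed level was 314424 normalised counts with DMSO and 307285 with I-CBP112, against 110989 with C646 and 1.09e+05 with ethanol. Skeletal muscle markers summed to between 1054 and 1535, with Myod1 at 0, 9 of 16 below a mean of 10, and 1 of 6 tested higher and 3 lower with DMSO, and 1 higher and 1 lower with I-CBP112. Fibroblast markers fell in 8 of 10 with DMSO and 6 of 10 with I-CBP112, and their sums ran from 654439 with I-CBP112 to 1.08e+06 with ethanol. Smooth muscle markers fell in 6 of 7 with DMSO and 1 of 7 with I-CBP112, with sums of 127891 with ethanol and 126163 with C646, and 87445 with DMSO and 131294 with I-CBP112. Endothelial markers fell in 1 of 2 tested with DMSO and with I-CBP112, macrophage markers in 0 and 2 of 6, and 0 of 3 tested neuron and glia markers were called in either; their sums over the 4 groups ran from 598 to 1019.6, from 2623 to 3324 and from 4158 to 6771. None of the markers other than Myod1 was at 0. The part of these cell types in the calcium handling values was not tested.

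The genes whose profile over the 4 groups lay nearest to a member were searched among 12116 genes whose mean was at least 50 normalised counts. For Sln these were Nppb, the B-type natriuretic peptide, at a distance of 0.38 on the log2 scale, Myh6, a cardiac myosin heavy chain, at 0.49, and the Z-disc protein Actn2 at 0.53. For Srl they were Hs3st4 at 0.12, Fam134b at 0.12 and cardiac troponin I, Tnni3, at 0.13. For Slc8a1 they were Rgs16 at 0.02, the splicing regulator Rbm20 at 0.08 and troponin C, Tnnc1, at 0.09. For Ryr2 they were Hist1h3h at 0.06, the Z-disc protein Ldb3 at 0.08 and the chemokine Ccl2 at 0.10. Atp2a2 had Enpp4 at 0.05, Ypel2 at 0.07 and Got1 at 0.07 nearest, and Casq2 had Cux1, Kiss1r and Ank, each at 0.03. Trdn had Ptdss2 at 0.02, Gbe1 at 0.04 and Rundc3a at 0.05, and Pln had Dclk2 at 0.09, Ppargc1b at 0.10 and Slc9a5 at 0.11. None of the last 3 was called in any comparison with ethanol. Nppb, Kiss1r and Rundc3a were not called against ethanol either. The distance to the nearest gene was greater for Sln than for the other members listed, and all distances rest on 4 group means without their error.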

How the data were processed

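Transcript levels of 8 libraries were quantified by the authors using kallisto 0.43.1 and GRCm38.p5, and compared with DESeq2 (no version listed), per the submitters' processing notes. RNA was column-purified and made into TruSeq libraries, per the labels' protocols. The 3 deposited tables give, per the file headers, the authors' mean normalized count (a signal over all libraries), log2 fold change with its standard error, Wald statistic (a score equal to fold change over standard error), p-value and adjusted p-value. Neither library values nor depths per library are in them; the median standard error of a tested gene's log2 fold change was 0.185, and the mean normalized counts sum to 3.80e+07 per library. The lowest mean with an adjusted p was 26.1 in the DMSO and I-CBP112 tables.

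No table states its reference group. Ethanol, the treatment without a table, was used as that group. Of 2312 genes with about 1 count in all (mean under 0.16), 596 were seen in none of the 3 named groups, so the reference is a group of its own.

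Group means came from the mean and the 3 fold changes, assuming equal groups. Differences between treatments used 1 dispersion per gene from the 3 standard errors, a normal p and Benjamini-Hochberg adjustment over 14830 genes. The formula gave at least 98.9% of deposited standard errors to within 1%, but its dispersion was fitted to these same errors. Data simulated with the same formula checked the calculation, and not whether the formula holds for these data. Intervals are 95% normal intervals. Gene positions come from GENCODE M21 (50376 of 50600 identifiers matched). Python 3.11.15, pandas 2.3.3 and scipy 1.17.1 were used. Genes were named by these rules: the 10 members; in each list, up to 4 genes called in at least 1 comparison with ethanol, and relatives of members; and the 3 nearest profiles of called members. A gene that the rule for lists names is not reported here. The members and lists were chosen with earlier results of these data known. Other scalings, reference distributions, gene sets for adjustment, standard errors and lengths were tried.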

Additional observations from a re-analysis of the deposited data

How the results depend on the processing

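No paired analysis was possible because the tables hold no values of single libraries, and leaving out a library was not run for the same reason. Scaling to totals or centring on the median gene kept every count of called members, and moved the median gene by less than 0.1. A t distribution with 4 degrees of freedom left 0 members called in each of the 6 comparisons, and called 1 gene of all with DMSO against ethanol and 0 in the other 5. With the upper bound of the standard error, 0 members were called for I-CBP112 against DMSO, 7 for C646 against DMSO and 6 for C646 against I-CBP112, and 237, 839 and 501 of all genes, against 1034, 2349 and 1454. Of all genes, 1 was called for C646 against ethanol when adjusted over the filtered genes only, against 2. Adjusted over all genes with a p-value, 7 members were called for C646 against DMSO, against 8, and the calls of members in the other 4 comparisons so adjusted were as before in number. Values near 0 changed sign: with scaling to totals Atp2a2 was at 0.0024 and Casq2 at 0.00024 for C646 against ethanol, and Hrc for C646 against DMSO was at 0.017, or 0.020 when centred on the median gene. Lengths from all exons moved the level of Ryr2 over all libraries from 498 to 291 per kilobase, that of Trdn from 173 to 83.5 and that of Pln from 169.7 to 144. Hrc, at a mean of 19.7, has wide intervals, and whether depth limits it was not tested.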

Other observations

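Atp2a3, the pump SERCA3 of blood and epithelial cells, had rebuilt means of 3.72 normalised counts with ethanol and 4.90 with C646, and 5.53 with DMSO and 25.0 with I-CBP112. In the authors' deposited table its log2 fold change with I-CBP112 was 2.75 ± 1.09, with an unadjusted p of 0.011 and no adjusted p, from a mean of 9.80. The exchanger Slc8a3 had 24.7 with ethanol and 13.3 with C646, and 45.1 with DMSO and 26.9 with I-CBP112, and was not called. Slc8b1, the sodium-calcium exchanger of mitochondria, was higher with I-CBP112 than with DMSO, by a log2 difference of 0.56 ± 0.17 (adjusted p = 0.017), while its values against ethanol in the authors' deposited table were -0.24 ± 0.17 with DMSO and 0.32 ± 0.17 with I-CBP112, neither called. Tmem38b, the store potassium channel of non-muscle cells, was higher with C646 than with DMSO, by 0.79 ± 0.21 (adjusted p = 0.0029), and stood at -0.47 ± 0.22 with DMSO and 0.32 ± 0.21 with C646 against ethanol in the authors' deposited table, neither called. These genes were named after their values were seen. With C646, 0.748% of the 14830 tested genes had an unadjusted p below 0.05, against 26.3% with DMSO and 19.3% with I-CBP112. The C646 share is smaller than right errors give when no gene differs, so the errors were wide beside the differences between C646 and ethanol. The median standard error over tested genes was 0.185 in each of the 3 tables, so it was not larger in the C646 table. Why the C646 share was so small was not tested.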
